A study of Mus musculus with 13 samples.

Results

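AP-1 and other immediate early factors were examined in the brown fat of mice, a tissue specialised in producing heat. The genes were Fos, Fosb, Fosl2, Jun, Junb, Maff, Atf3, Egr1, Ier2 and Ier3, chosen by gene symbol as 10 of the 55357 genes in the deposited count table. There were 4 groups. KO cold (n = 4) came from mice that lacked Stim1 and Stim2 through Cre driven by the adiponectin promoter (Stim1/2_Adp-Cre) and had been kept at 4 °C for 6 h. Control cold (n = 4) came from floxed mice without that Cre (Stim1/2_fl/fl) after the same exposure. KO RT (n = 3) and control RT (n = 2) were the same genotypes housed at room temperature (RT). All groups carried the floxed alleles, so Cre and deletion were not separated. Cre of this promoter acts in adipocytes, and the other cells of the depot keep both genes. The labels give no age and do not tie samples to single mice, so each p-value reflects sample-to-sample spread, which may be technical.

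AP-1 is a pair of basic leucine zipper proteins, usually 1 of the Fos family (Fos, Fosb, Fosl2) bound to 1 of the Jun family (Jun, Junb). Atf3 and the small Maf protein Maff carry the same kind of zipper and join related pairs, and Egr1 is a zinc finger factor. Such genes are called immediate early because a stimulus switches them on without new protein synthesis, through MAP kinases, the serum response factor and, after calcium or cyclic AMP signals, CREB. Their mRNAs are short-lived, so a level taken hours after a stimulus need not show its peak. In brown fat the sympathetic nerves act through β-adrenergic receptors and cyclic AMP in cold. STIM1 and STIM2 sense the calcium store of the endoplasmic reticulum and open calcium entry when it empties.

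Sequencing was of 3′ tags, short stretches next to the poly(A) tail of an mRNA, and the deposited values were raw counts. Each library held 1570684 to 2016178 counts, of which the 10 genes took 0.0146% to 0.0549%. Levels are given as CPM, counts per 1000000 counts of a library, scaled by TMM, as mean ± SD over libraries. A total of 11073 genes passed a filter on low counts and was tested together with edgeR's quasi-likelihood test. Adjusted p is its Benjamini-Hochberg value over those genes, and a gene under 0.05 is called changed. Changes are log2 fold changes ± standard error. The 10 genes were thus tested as 9. Fosb, with at most 11 counts in any library, was not tested. Fos, Maff and Atf3 passed the filter through libraries in which they were high. As a check of the labels, Stim1 ran from 78.8 to 108 CPM in KO cold against 114 to 134 CPM in control cold, and from 62.0 to 86.1 CPM in KO RT against 126 to 149.9 CPM in control RT. Stim2 ran from 13.5 to 29.7 CPM in KO cold against 31.1 to 54.5 CPM in control cold, and from 21.0 to 25.2 CPM in KO RT against 29.0 and 40.4 CPM in control RT. In cold Stim2 passed as lower in KO (-0.88, adjusted p = 0.0382) and Stim1 did not (-0.45, adjusted p = 0.0570), and a 3′ tag need not lie in the deleted part. All 8 tested markers of brown adipocytes were present in every library. Genes detected per library ran from 15506 to 16106 in cold against 16260 to 17061 at RT.

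**Figure D1:**
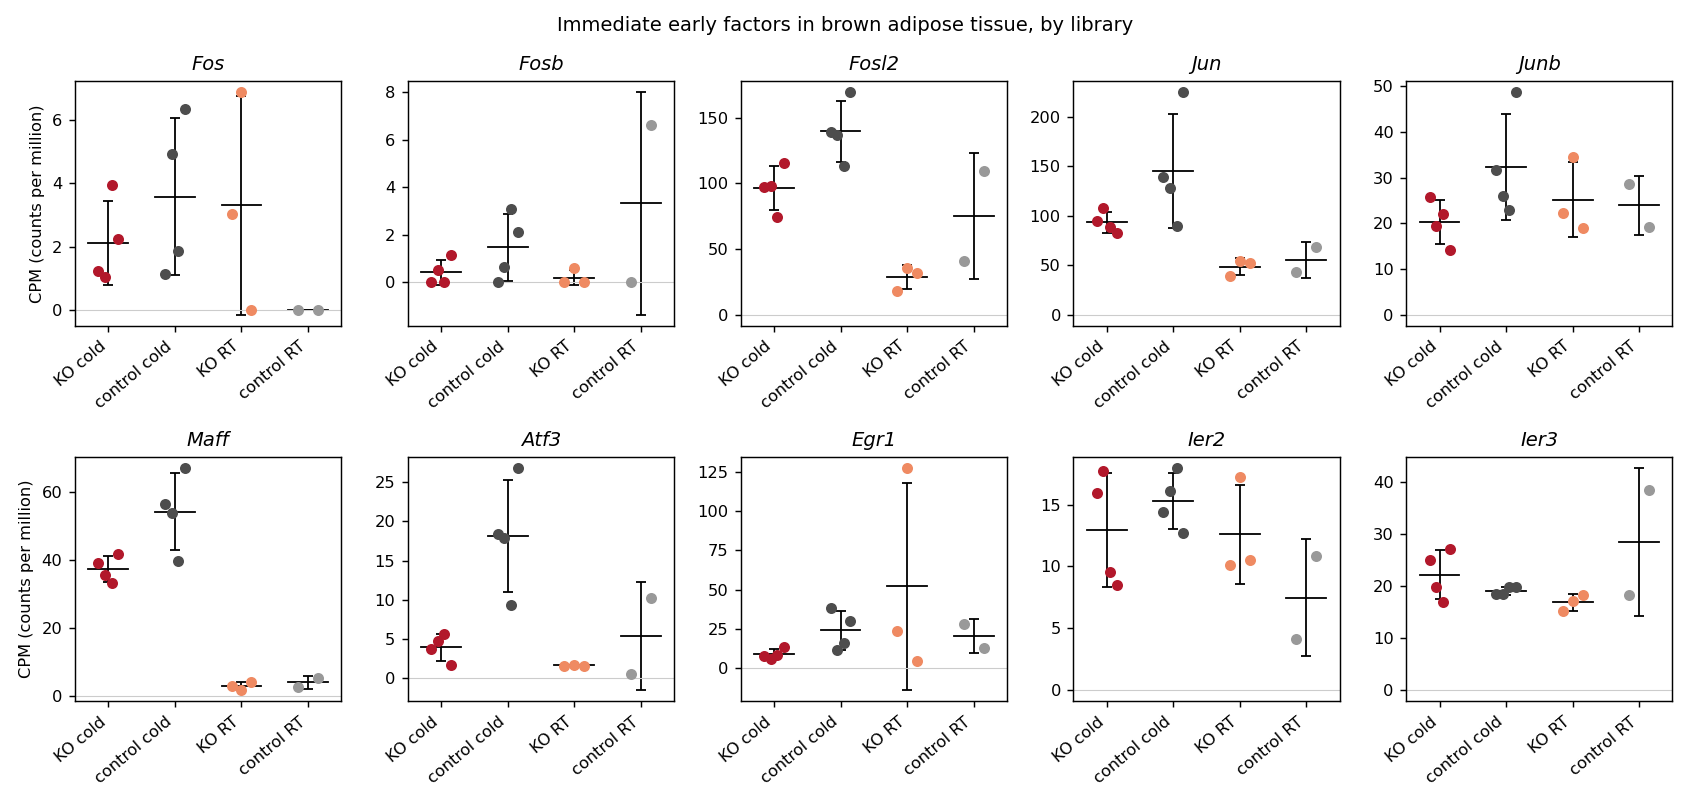
CPM of each of the 10 genes (y axis, linear, own scale per panel) in each of the 13 libraries (points), by group on the x axis, with the group mean (horizontal line) and SD (bar). Maff separates cold from RT in both genotypes, Atf3 is at 5.63 CPM or less in all KO libraries, and a single KO RT library holds Egr1 at 127 CPM.

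The promoter windows of the 4 genes on which the results below turn are printed here because Maff, Fosl2 and Jun rose in cold in both genotypes and Atf3 differed between genotypes. The sequences are from RefSeq on build GRCm38.p6, a different build from the one named in the submitters' notes. They run 5′ to 3′ along the gene, from 250 bases before to 50 bases after the annotated start. Capitals mark the cyclic AMP response element TGACGTCA, its core TGACG, the AP-1 site TGANTCA, the CArG box of the serum response factor and the EGR site GCGNGGGCG, searched on both strands. The core lies within the full element and is counted in both.
Maff, second of 3 annotated starts, chr15:79347270-79347569, plus strand: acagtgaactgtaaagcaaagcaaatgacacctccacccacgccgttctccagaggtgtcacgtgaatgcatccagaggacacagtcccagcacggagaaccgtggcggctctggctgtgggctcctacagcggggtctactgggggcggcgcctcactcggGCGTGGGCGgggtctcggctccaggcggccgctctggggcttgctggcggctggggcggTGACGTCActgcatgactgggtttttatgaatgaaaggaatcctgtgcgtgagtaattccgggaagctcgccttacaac
Fosl2, chr5:32136222-32136521, plus strand: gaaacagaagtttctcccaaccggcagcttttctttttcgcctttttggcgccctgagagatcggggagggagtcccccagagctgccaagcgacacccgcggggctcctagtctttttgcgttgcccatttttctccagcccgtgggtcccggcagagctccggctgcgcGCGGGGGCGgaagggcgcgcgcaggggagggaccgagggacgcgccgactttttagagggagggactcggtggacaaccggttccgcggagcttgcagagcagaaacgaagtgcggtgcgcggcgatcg
Jun, chr4:95052173-95052472, minus strand: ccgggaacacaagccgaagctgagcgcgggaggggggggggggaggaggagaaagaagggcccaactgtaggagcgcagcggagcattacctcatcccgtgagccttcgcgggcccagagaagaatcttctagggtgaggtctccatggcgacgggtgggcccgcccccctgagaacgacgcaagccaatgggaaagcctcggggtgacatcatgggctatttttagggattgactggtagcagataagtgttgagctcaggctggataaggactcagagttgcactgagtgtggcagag
Atf3, chr1:191183284-191183583, minus strand: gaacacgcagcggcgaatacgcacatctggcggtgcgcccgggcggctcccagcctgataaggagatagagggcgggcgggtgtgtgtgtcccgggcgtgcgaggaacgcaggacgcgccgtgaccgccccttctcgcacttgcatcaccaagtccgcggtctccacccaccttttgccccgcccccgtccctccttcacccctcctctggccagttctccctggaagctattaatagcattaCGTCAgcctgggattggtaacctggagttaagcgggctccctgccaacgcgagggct

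RefSeq windows were found for 8 of the 10 genes (not Egr1 or Ier2), 10 windows in all, since Maff had 3. The full cyclic AMP response element occurred in 1 of them, that of the second Maff start, at bases -29 to -22, and in 1.79% of all 32851 windows of this length. The core alone or within the full element was found in 6 of the 10 windows, those of 5 genes (Atf3, Fos, Fosb, Junb and Maff), against 20.8% of all windows. In Atf3 it lay on the opposite strand at bases -7 to -3, and in Fos there were matches at -129 to -125 and -66 to -62. The EGR site occurred in 3 of the 10 windows (Fosb, Fosl2 and the second Maff start) against 5.55% of all windows. The letters G and C made up 50.3% to 68.3% of the 10 windows, against a median of 52.7% over all windows. Their part in these matches was not tested. The letters of the AP-1 site (7.81% of all windows) and the CArG box (1.63%) occurred in 0 of the 10 windows. Sites outside the windows and inexact matches were not searched, so these genes may hold such elements. TATAAA, the letters of the TATA box, was not put in capitals and occurred in 13.6% of all windows. It was found in Fos at -33 to -28 and in Junb at 1 to 6, from the annotated start onward. These matches are descriptions of letters, and 3′ tags do not tell which Maff start was used.

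Of the 9 tested genes, 3 rose and 1 fell with cold in KO tissue, beside 9.43% of all tested genes that rose and 9.45% that fell. In control tissue 5 rose and 0 fell, beside 12.7% of all tested genes that rose and 12.6% that fell. Maff, Fosl2 and Jun were the 3 that rose in each genotype. Each genotype was set against its own RT libraries within 1 fit. All cold libraries lay above all RT libraries for 3 of the 9 in KO, beside 15.8% of all tested genes. The same held for 5 of the 9 in control, beside 19.8%. The 5 called higher in control included Fos, Maff and Atf3, and the 5 without overlap included Fos and Maff. These genes passed the filter on low counts through libraries in which they were high, and Maff also counts in KO. The counts are therefore not independent of the filter. In bulk tissue fewer cells of a type and less RNA per cell cannot be told apart. The median log2 fold change of the 9 was 0.39 in KO (all tested genes -0.01) and 1.08 in control (all tested genes -0.02).

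Maff (ENSMUSG00000042622.15, chromosome 15) encodes a small Maf protein, which binds DNA but has no activation domain of its own. Its level was 39.2, 35.5, 33.2 and 41.8 CPM in the KO cold libraries, numbered 1 to 4, and 56.4, 53.8, 39.6 and 67.1 CPM in the control cold libraries. The RT libraries held 3 to 9 counts each, at 3.04, 1.72 and 4.20 CPM for KO and 2.76 and 5.42 CPM for control. Every cold library was above every RT library, and the 2 RT groups overlapped. The cold rise was 3.60 ± 0.29 (adjusted p = 1.59e-06) in KO and 3.75 ± 0.32 (adjusted p = 3.06e-06) in control. By p-value it ranked 7 of 11073 genes in each genotype, and neither call was lost when any 1 library outside control RT was removed. Removing a control RT library leaves 1 in that group. Over all removals the control rise ran from 3.30 to 4.27.

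Fosl2 (ENSMUSG00000029135.11, chromosome 5) is a Fos family protein without the strong activation domain of Fos. It was at 97.3, 98.1, 74.3 and 116 CPM in KO cold against 18.2, 35.6 and 31.5 CPM in KO RT, with no overlap (1.77 ± 0.29, adjusted p = 0.000568). In control it was at 139, 137, 113 and 169 CPM in cold against 40.9 and 109 CPM at RT (0.91 ± 0.30, adjusted p = 0.0371). The second control RT library thus came close to the lowest control cold library. The control call was lost without control cold 1, 2 or 4 (adjusted p = 0.0624, 0.0542 and 0.0754). Without control RT 1 the change was 0.35, and without control RT 2 it was 1.78, each with 1 control RT library left. With only the 2 compared groups in the fit the adjusted p was 0.0841.

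Jun (ENSMUSG00000052684.5, chromosome 4), the founding member of the Jun family, was at 94.9, 107, 88.3 and 83.0 CPM in KO cold against 39.0, 54.5 and 52.0 CPM in KO RT (0.95 ± 0.25, adjusted p = 0.0153). In control it was at 139, 129, 89.2 and 225 CPM in cold against 42.8 and 68.1 CPM at RT (1.40 ± 0.29, adjusted p = 0.00261). Cold and RT libraries did not overlap in either genotype. The KO call was lost without KO RT 1 (0.81, adjusted p = 0.0860) and the control call without control RT 1 (1.08, adjusted p = 0.0644).

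Fos (ENSMUSG00000021250.14, chromosome 12), the partner of Jun in classical AP-1, was scarce 6 h into cold. It had 2, 2, 7 and 4 counts in KO cold and 2, 8, 3 and 9 counts in control cold. At RT it had 6, 12 and 0 counts in KO and 0 in both control libraries. The total of control cold was 4.40 times the level that 3 counts over the control RT group would give, and the exact 95% counting interval put control cold at least 3.29-fold higher (edgeR adjusted p = 0.0394). That call was lost without control cold 2 (adjusted p = 0.0715), KO RT 1 (0.0504), control RT 1 (0.201) or control RT 2 (0.106), and with limma voom (0.0547). It was also lost with a term for replicate number added to the edgeR fit (adjusted p = 0.0729). Without KO RT 2 or control cold 4, and with only the 2 compared groups in the fit, the gene did not pass the filter on low counts. In KO, cold was at 2.12 ± 1.33 CPM against 3.31 ± 3.45 CPM at RT (-0.60 ± 0.80, adjusted p = 0.649). Fosb (ENSMUSG00000003545.4, chromosome 7), a Fos paralog, had 3 counts over KO cold, 9 over control cold, 1 over KO RT and 11 over control RT. All 11 came from control RT 2. The ratio of scaled group totals was 2.38 (exact 95% counting interval 0.191 to 125) for cold over RT in KO and 0.491 (0.180 to 1.30) in control, so no direction was detectable at this depth. Counting intervals and the limit of 3 counts cover counting error only.

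**Figure D2:**
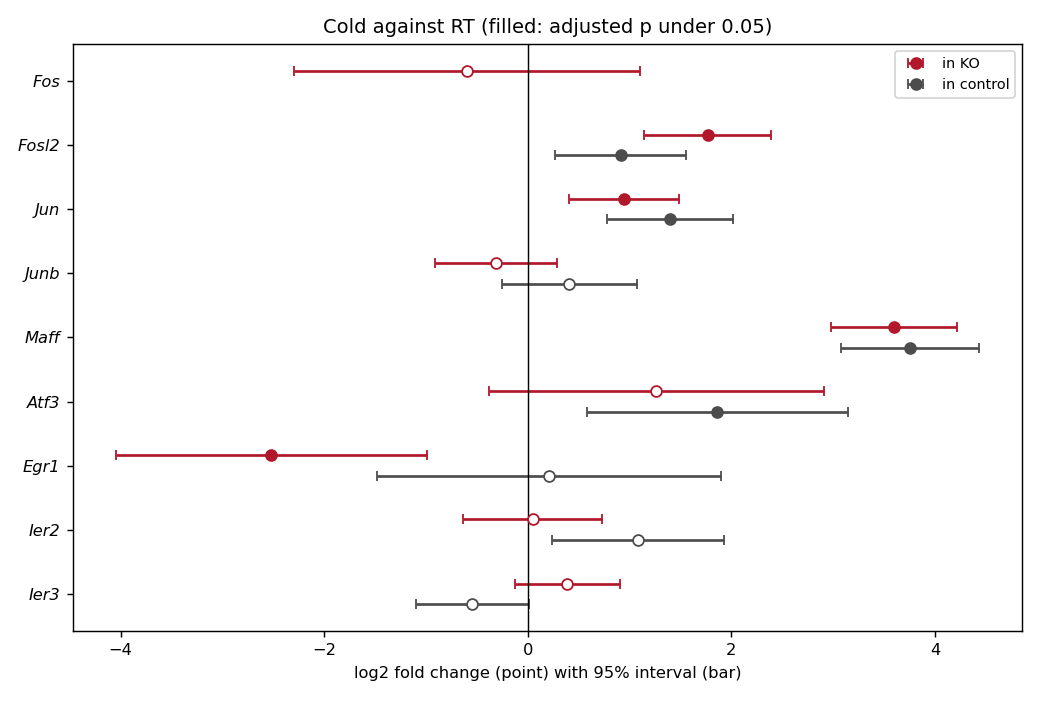
Log2 fold change of cold against RT (x axis) with its 95% interval for each tested gene (y axis), in KO (red) and control (grey), with filled points where the adjusted p is under 0.05. Maff lies farthest right in both genotypes, at 3.60 in KO and 3.75 in control, and Egr1 in KO is at -2.52. Fos in control is not drawn because both control RT libraries held 0 counts.

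Atf3 (ENSMUSG00000026628.14, chromosome 1), an ATF/CREB family factor induced by many stresses and often a repressor, was at 3.67, 4.70, 5.63 and 1.69 CPM in KO cold against 1.52, 1.72 and 1.57 CPM in KO RT (1.26 ± 0.78, adjusted p = 0.282). In control it was at 18.4, 17.9, 9.29 and 26.8 CPM in cold against 0.460 and 10.2 CPM at RT, and there it rose (1.86 ± 0.61, adjusted p = 0.0337). The groups overlapped, since control RT 2 lay above control cold 3. Without control cold 1, 2 or 4 the adjusted p was 0.0603, 0.0527 and 0.0781. Without control RT 1 the change was 0.80 (adjusted p = 0.334), and without control RT 2 it was 5.10. With only the 2 compared groups in the fit the adjusted p was 0.0912, and with a term for replicate number added it was 0.0513. The difference between the cold responses, KO minus control, was -0.60 ± 1.10 (adjusted p = 0.931, 95% interval -2.93 to 1.72), so a smaller response in KO was not shown.

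Egr1 (ENSMUSG00000038418.8, chromosome 18), a zinc finger factor of growth and stress signals, was the gene that fell with cold in KO. It was at 7.96, 5.74, 8.44 and 13.5 CPM in KO cold against 23.8, 127 and 4.72 CPM in KO RT (-2.52 ± 0.72, adjusted p = 0.0218). The groups overlapped, and KO RT 2 alone held 222 of the 278 counts of its group. Without that library the change was -0.68 (adjusted p = 0.482), and without KO cold 1, 2 or 3 the adjusted p was 0.0530, 0.0632 and 0.0549. With limma voom it was -1.46 (adjusted p = 0.275). In control Egr1 was at 38.0, 11.7, 16.1 and 30.4 CPM in cold against 28.0 and 12.7 CPM at RT (0.21 ± 0.80, adjusted p = 0.874).

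Junb, Ier2 and Ier3 did not pass in either cold comparison. Junb (ENSMUSG00000052837.8, chromosome 8), a Jun family protein that can restrain Jun, was at 20.3 ± 4.87 CPM in KO cold against 25.2 ± 8.17 CPM in KO RT (-0.31 ± 0.28, adjusted p = 0.485). In control it was at 32.3 ± 11.5 CPM in cold against 23.9 ± 6.52 CPM at RT (0.41 ± 0.31, adjusted p = 0.361). Ier2 (ENSMUSG00000053560.6, chromosome 8), a nuclear protein, was at 12.9 ± 4.59 CPM in KO cold against 12.6 ± 3.99 CPM in KO RT (0.05 ± 0.32, adjusted p = 0.938). In control it was at 14.4, 16.1, 18.0 and 12.7 CPM in cold against 4.14 and 10.8 CPM at RT, with no overlap (1.08 ± 0.40, adjusted p = 0.0570). It passed without KO cold 4 (adjusted p = 0.0491), with no filter on low counts (adjusted p = 0.0197) and with limma voom (adjusted p = 0.0413). Without control RT 2, which left 1 control RT library, the change was 1.88. Ier3 (ENSMUSG00000003541.7, chromosome 17), a regulator of cell survival, was at 22.2 ± 4.70 CPM in KO cold against 16.9 ± 1.61 CPM in KO RT (0.39 ± 0.24, adjusted p = 0.290). In control it was at 19.1 ± 0.759 CPM in cold against 18.4 and 38.6 CPM at RT (-0.55 ± 0.26, adjusted p = 0.141). Without control RT 1, which left 1 control RT library, the change was -1.01.

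Summed marker levels of some cell types differed between cold and RT. The summed level of 6 granulocyte and lymphocyte markers was 6.34 to 17.3 CPM in cold against 23.1 to 56.0 CPM at RT, with Cd79a at 0 in every library and Cd3e and Ms4a1 at 0 in 7 of 13. Brown adipocyte markers (8) summed to 21539 to 26749 CPM in cold against 16663 to 18730 CPM at RT. The ranges of macrophage (10), endothelial (8), fibroblast (7), smooth muscle and pericyte (7) and Schwann cell (4) markers overlapped between cold and RT. Skeletal muscle markers (5) ran from 0.612 to 184.5 CPM in cold against 12.7 to 1507 CPM at RT. The part of these, and of the number of genes detected, in the cold results was not tested.

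KO was compared with control in cold to ask whether loss of both calcium sensors in adipocytes changes the immediate early genes during thermogenic demand. Of the 9 tested genes, 1 fell (Atf3) and 0 rose, beside 3.49% of all tested genes that fell and 2.44% that rose. The median log2 fold change of the 9 was -0.63 (all tested genes -0.01), and 8 of 9 values were negative against 50.6% of all tested genes. Their median and signs describe genes picked with earlier results known, and support nothing by themselves. With no filter on low counts 5 of the 9 passed as lower (Atf3, Egr1, Fosl2, Jun and Junb), beside 540 of all 22904 genes in that fit. The standard error of Egr1 was then 0.25, against 0.75 in the main fit. With only the cold groups in the fit 2 passed as lower (Atf3 and Egr1), beside 333 of all 9661 genes.

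Atf3 was lower in every KO cold library (1.69 to 5.63 CPM, 3 to 10 counts) than in every control cold library (9.29 to 26.8 CPM, 15 to 38 counts), with means of 3.92 ± 1.69 CPM for KO against 18.1 ± 7.16 CPM for control. Such a separation, with KO lower, held for 6.53% of all tested genes. The Atf3 change was -2.17 ± 0.50 (95% interval -3.22 to -1.12, adjusted p = 0.0163), rank 292 of 11073 by p-value. Without KO cold 4, the cold library with the fewest counts of the gene, it was -1.93 (adjusted p = 0.0515), and without each other library the call was kept.

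Jun, Junb, Maff and Fosl2 had unadjusted p-values under 0.05 and missed the adjusted threshold. With Atf3 these made 5 of the 9 with an unadjusted edgeR p under 0.05, beside 2224 of all 11073 tested genes. Jun was at 93.4 ± 10.6 CPM in KO cold against 145 ± 57.3 CPM in control cold (-0.63 ± 0.22, adjusted p = 0.103). Maff was at 37.4 ± 3.81 CPM in KO cold against 54.2 ± 11.3 CPM in control cold (-0.53 ± 0.18, adjusted p = 0.0941). In each of these genes the groups overlapped through control cold 3, the lowest control library. Without it Jun (-0.81, adjusted p = 0.0295) and Maff (-0.66, adjusted p = 0.0406) passed as lower. Junb was at 25.7, 19.3, 21.9 and 14.1 CPM in KO cold against 31.7, 25.9, 22.9 and 48.7 CPM in control cold (-0.67 ± 0.26, adjusted p = 0.156). Fosl2 was at 96.3 ± 17.0 CPM in KO cold against 139.5 ± 23.0 CPM in control cold (-0.53 ± 0.24, adjusted p = 0.220), and 1 of the KO libraries lay above the lowest control library.

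Egr1 was at 8.92 ± 3.30 CPM in KO cold against 24.1 ± 12.2 CPM in control cold (-1.43 ± 0.75, adjusted p = 0.303). Its range was 5.74 to 13.5 CPM in KO cold and 11.7 to 38.0 CPM in control cold, so the groups overlapped by 1 library each. With only the cold groups in the fit it passed as lower (-1.42, adjusted p = 0.0395). Fos was at 2.12 ± 1.33 CPM in KO cold against 3.58 ± 2.48 CPM in control cold (-0.70 ± 0.76, adjusted p = 0.664). Ier2 (-0.24 ± 0.30, adjusted p = 0.703) and Ier3 (0.21 ± 0.23, adjusted p = 0.657) did not pass, and Ier3 was the only positive value of the 9. For Ier3 the 95% interval of -0.27 to 0.69 leaves room for a difference either way. Fosb had 3 counts over KO cold and 9 over control cold (ratio 0.300, exact 95% counting interval 0.0522 to 1.20). Control cold 4 held the highest value of its group for 6 of the 10 genes (Fos, Fosl2, Jun, Junb, Maff and Atf3), while it was highest for 27.7% of all tested genes. Without it the Atf3 change was -1.93 (adjusted p = 0.0453) and the Jun change -0.35. Genes detected per library did not overlap (15752 to 16106 in KO cold against 15506 to 15723 in control cold), nor did the TMM scaling factors (0.981 to 1.004 in KO cold against 0.889 to 0.970 in control cold), and their part in these results was not tested. Marker sums in cold overlapped between KO and control for macrophages (117 to 148 CPM against 113 to 322 CPM) and fibroblasts (554 to 647 CPM against 507 to 1477 CPM). Brown adipocyte markers summed to 21539 to 22901 CPM in KO cold against 22487 to 26749 CPM in control cold. Every control cold library but control cold 1 lay above that KO range. The part of these sums in the results was not tested.

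**Figure D3:**
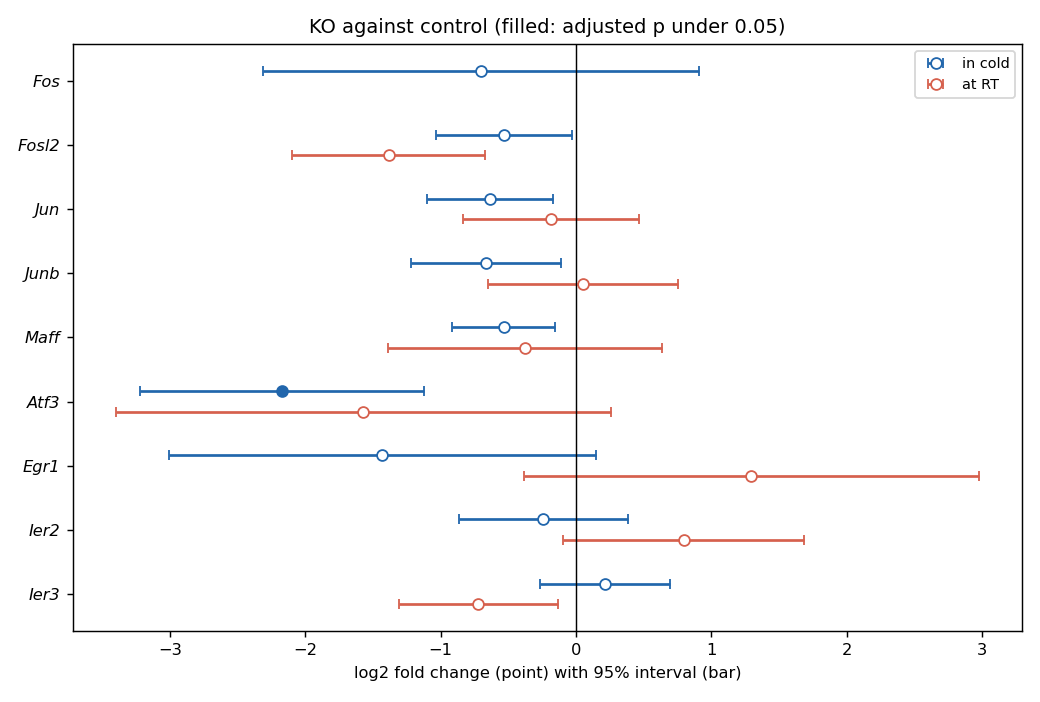
Log2 fold change of KO against control (x axis) with its 95% interval for each tested gene (y axis), in cold (blue) and at RT (red), with filled points where the adjusted p is under 0.05. In cold 8 of 9 points lie left of 0 and Atf3, at -2.17, is the filled one; at RT no point is filled. Fos at RT is not drawn because both control RT libraries held 0 counts.

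At RT 0 of the 9 genes passed between KO and control, as did 0 of 11073 genes (0%) with edgeR, where 346 genes, 3 of the 9 among them, had an unadjusted p under 0.05. DESeq2 called 3 genes, none of them among the 9, and edgeR with no filter on low counts called 50, with Egr1, Fos and Fosl2 among them. The smallest p of the 9 belonged to Fosl2, rank 9 of all genes, at 28.4 ± 9.07 CPM in KO RT against 40.9 and 109 CPM in control RT (-1.38 ± 0.34, adjusted p = 0.793). Every KO library was below both control libraries. Without control RT 1 the change was -1.95, and without control RT 2 it was -0.53, each with 1 control RT library left. Ier3 was at 16.9 ± 1.61 CPM in KO RT against 18.4 and 38.6 CPM in control RT (-0.72 ± 0.28, adjusted p = 1). Its groups did not overlap, but the highest KO library and the lower control library were both at 18.4 CPM. Separation with KO lower held for 2 of the 9, Fosl2 and Ier3, beside 7.96% of all tested genes. Fos had 18 counts over 3 KO RT libraries, of which 1 held 0, against 0 over 2 control RT libraries, and the exact 95% counting interval put KO RT at least 2.998-fold higher. The unadjusted edgeR p, which includes the spread between libraries, was 0.0120, and Fos did not pass after adjustment over all tested genes. Egr1 (1.30 ± 0.80), Ier2 (0.79 ± 0.42), Junb (0.05 ± 0.33), Jun (-0.18 ± 0.31), Maff (-0.38 ± 0.48) and Atf3 (-1.57 ± 0.86) had an adjusted p of 1. The median of the 9 was -0.18 (all tested genes 0.00). Fosb had 1 count over KO RT and 11 over control RT (ratio 0.0620, exact 95% counting interval 0.00144 to 0.427), all 11 in 1 library.

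Control RT 2 was above control RT 1 for 7 of the 10 genes (Fosb, Fosl2, Jun, Maff, Atf3, Ier2 and Ier3), while it was the higher for 49.1% of all tested genes. Atf3 was at 10.2 CPM (17 counts) in control RT 2 and 0.460 CPM (1 count) in control RT 1. KO RT 2 was the highest of 3 for 8 of the 10 genes, while it was highest for 33.8% of all tested genes. No single RT library was high for every gene, since Fosb and Atf3 were high in control RT 2 and Egr1 and Fos in KO RT 2. Granulocyte and lymphocyte markers summed to 56.0 CPM in control RT 2 and 36.3 CPM in control RT 1, while skeletal muscle markers summed to 12.7 CPM in control RT 2 and 1507 CPM in control RT 1. Their part in these levels was not tested.

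**Figure D4:**
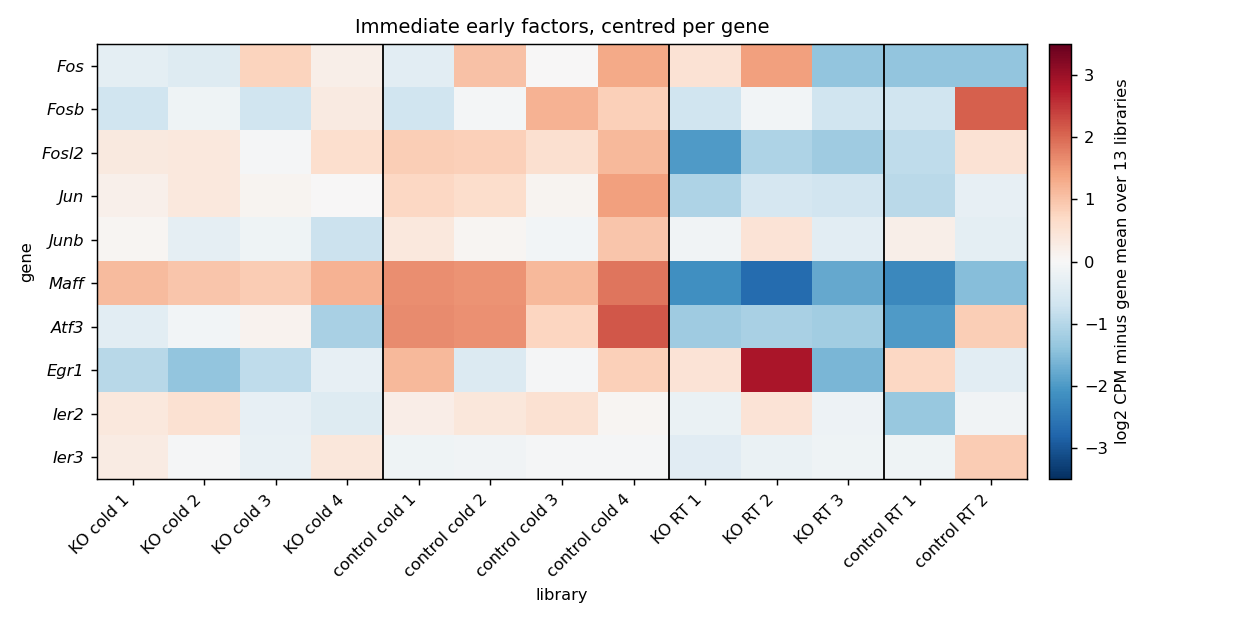
Log2 CPM of each gene (rows) in each of the 13 libraries (columns) minus the gene's mean over the libraries, from blue (below) to red (above). Control cold 4 is red for Fos, Fosl2, Jun, Junb, Maff and Atf3, the deepest red at RT is Egr1 in KO RT 2, and Maff is blue in all 5 RT libraries.

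The difference of the cold responses, KO minus control, was tested for each gene, and 0 of 9 passed. Over all genes 2 passed (0.0181%), Hspa4l and Pcsk6, named here after their values were seen. Unadjusted p was under 0.05 for 3 of the 9 and for 913 of all genes in this edgeR fit, and over all genes DESeq2 called 25 and limma voom 1. With no filter on low counts 133 genes passed, Egr1 and Fos among them. The 3 were Fos (cold over RT at 0.660 in KO and at least 3.29 in control by counting error, adjusted p = 0.439), Egr1 (-2.73 ± 1.09, adjusted p = 0.520) and Ier3 (0.94 ± 0.36, adjusted p = 0.505). For Maff the difference was -0.16 ± 0.54 (95% interval -1.30 to 0.99), for Jun -0.45 ± 0.38 and for Fosl2 0.85 ± 0.41. The comparisons within each genotype and temperature share their libraries with this one.

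Related genes of the pathway were followed in lists set by their role. Their cold comparisons in control rest on the same 2 control RT libraries, which lay apart for some listed genes. Nr4a1 was at 188 CPM in control RT 2 and 23.5 CPM in control RT 1. Klf10 went the other way, at 18.7 and 53.3 CPM. The counts below stand beside 2.44% of all tested genes higher and 3.49% lower in KO against control in cold, 9.43% higher and 9.45% lower with cold in KO, and 12.7% higher and 12.6% lower with cold in control. Of 14 other AP-1 and leucine zipper partners, 10 were tested. In KO against control in cold 0 rose and 2 fell, Jund (-0.77 ± 0.16, adjusted p = 0.0105) and Atf2 (-0.61 ± 0.12, adjusted p = 0.00668), with a list median of 0.03. Atf7 (0.42 ± 0.16, adjusted p = 0.150) did not pass. With cold, 2 rose in KO and 5 in control, and 0 fell in either. In control these included Jdp2, a partner that represses AP-1 (1.12 ± 0.29), Jund (0.87 ± 0.21) and Atf2 (0.51 ± 0.15), with adjusted p of 0.0100, 0.00634 and 0.0210. Of 35 other immediate early genes, 28 were tested. In KO against control in cold 0 rose and 2 fell (median -0.25), namely the nuclear receptor gene Nr4a2 (-2.19 ± 0.52, adjusted p = 0.0209) and Sik1, a kinase that restrains CREB coactivators (-1.41 ± 0.37, adjusted p = 0.0308). Plk3 (-1.48 ± 0.43, adjusted p = 0.0502) and Klf10 (1.04 ± 0.30, adjusted p = 0.0530) did not pass. With cold, 11 of the 28 rose in KO and 12 in control, and 0 fell in either (medians 0.61 and 0.80). In control Plk3 rose most of those named (4.27 ± 0.76), beside Ccn2, a matricellular protein (3.39 ± 0.52), the repressor Nfil3 (2.80 ± 0.45) and Gadd45g (1.93 ± 0.36), with adjusted p of 0.000865, 0.000258, 0.000364 and 0.00111. The 2 control RT libraries held 3 and 6 counts of Plk3 and 4 and 10 counts of Ccn2. Plk3 ran from 18 to 145 counts in control cold.

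Upstream, 24 of 25 kinases and factors were tested. In KO against control in cold 0 rose and 3 fell (median -0.05), beside 2.44% and 3.49% of all tested genes, among them Mapkapk2, a stress-activated kinase that stabilises short-lived mRNAs (-0.83 ± 0.14, adjusted p = 0.00197) and Map2k4, a kinase above JNK (-0.49 ± 0.13, adjusted p = 0.0303). Crem, a cyclic AMP responsive factor, was at -0.84 ± 0.25 (adjusted p = 0.0527). With cold, 1 rose and 3 fell in KO, and 5 rose and 3 fell in control. Mapkapk2 (1.55 ± 0.18, adjusted p = 3.59e-05), Map2k4 (0.72 ± 0.16, adjusted p = 0.00410) and Crem (1.16 ± 0.32, adjusted p = 0.0138) were among those that rose in control, and Elk3 fell (-1.04 ± 0.27, adjusted p = 0.0102). Of 13 feedback and mRNA decay genes, 12 were tested. In KO against control in cold 1 rose, Spry1 (0.96 ± 0.27, adjusted p = 0.0461), and 2 fell, the MAP kinase phosphatase genes Dusp16 (-0.97 ± 0.22, adjusted p = 0.0176) and Dusp6 (-0.83 ± 0.21, adjusted p = 0.0294), with a median of -0.18. Zfp36l1, which speeds the decay of such mRNAs, was at -0.32 ± 0.13 (adjusted p = 0.184). With cold, 5 rose and 0 fell in each genotype, among them in control Spry4 (2.62 ± 0.55), Dusp6 (1.71 ± 0.28), Dusp16 (1.62 ± 0.30) and Spred2 (1.36 ± 0.24), with adjusted p of 0.00285, 0.000489, 0.00114 and 0.000800. Spry4 had 2 and 9 counts in the control RT libraries. None of the 4 lists had a call between KO and control at RT or in the difference of the cold responses.

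The mean profile of the 9 tested genes, each centred on its own mean of log2 CPM, ran from -0.03 to 0.08 in KO cold against 0.32 to 1.08 in control cold, and from -0.95 to -0.05 in KO RT against -0.88 and -0.19 in control RT. Jun lay nearest to it among the 9 (root mean square distance 0.26 log2 units over 13 libraries) and Maff farthest (1.27). The 5 other genes nearest to this profile were Eif2b3 (0.20), Rbm47 (0.20), Lrrc58 (0.21), Gpatch4 (0.21) and Supt6 (0.21). Of these Rbm47, an RNA-binding protein, averaged 205 ± 12.6 CPM in KO cold against 383 ± 33.5 CPM in control cold (SD, n = 4 each). Eif2b3, Rbm47 and Supt6 were called lower in KO cold, while Lrrc58 (adjusted p = 0.294) and Gpatch4 (adjusted p = 0.232) were not called. All were picked for likeness to this profile over the same libraries, so their levels give it no separate support.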

How the data were processed

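RNA of 13 brown adipose samples was measured from 3′ tags. The deposited values are raw counts per gene, made by the authors, per the submitters' processing notes, with STAR 2.7.10b and HTSeq 0.12.3 on GRCm39 (Ensembl release 103), after UMI-tools 1.1.2 and Trim Galore 0.6.7. Whether molecular tags were collapsed or strand was used is not given in the sources used here, so antisense and overlapping genes may share counts. Of 55632 lines, 275 repeated ones were dropped. Each library held 1570684 to 2016178 counts (median 1800685).

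Genes were filtered with filterByExpr (minimum count 10), scaled by TMM and fitted with 1 coefficient per group in edgeR 4.0.16's quasi-likelihood test (R 4.3.3) over 5 contrasts, with Benjamini-Hochberg adjustment over 11073 genes. The code was tested on simulated data. The alternatives were relative log expression scaling, no filter, DESeq2 1.42.0, limma 3.58.1 voom, a fit of the compared groups alone, a replicate block and leaving out each library. Limits for a count of 0 use 3 counts. In each list the genes named were the 4 with the smallest p in the comparison (some are not reported here), and the profile named the 5 nearest genes over 5 CPM (log2 with a prior count of 2). The genes and lists were chosen with earlier results of these data known. No library carried a label of a different batch.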

Additional observations from a re-analysis of the deposited data

How the results depend on the processing

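Of 45 results for single genes, leaving out 1 library kept 534 values in direction and call, made 6 pass, ended 19 calls and turned 16 round; the other settings kept 234, made 13 pass, ended 6 and turned 1 round. The last was Fos in cold against RT in KO, at 0.26 with limma voom. No scaling moved the median of all genes by more than 0.1.

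With no filter on low counts 5 of the 9 genes passed for KO against control in cold (Atf3, Egr1, Fosl2, Jun and Junb), 3 at RT (Egr1, Fos and Fosl2) and 2 in the difference of the cold responses (Egr1 and Fos). Over all 22904 genes in that fit, 982 passed in cold, 50 at RT and 133 in the difference. The cause was not tested. With only the compared groups in the fit 2 of the 9 passed in cold (Atf3 and Egr1) and 2 in control cold against RT (Jun and Maff). Over all genes 575 passed in cold (657 in the main fit) and 1685 in control cold against RT (2793 in the main fit). DESeq2 called 3 genes at RT and 25 in the difference, and limma voom 1 in the difference.

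Without 1 library, KO against control in cold gave 0 to 3 of the 9 genes and 392 to 716 of all genes, and KO against control at RT 0 to 1 and 0 to 3. Cold against RT gave 3 to 4 and 1219 to 2271 in KO and 2 to 6 and 1067 to 2821 in control. The difference gave 0 and 0 to 4. These ranges include the fits without a control RT library, which left 1 library in that group. Log2 fold changes that turned round ranged, for KO against control at RT, from -0.50 to 0.18 for Jun, -0.23 to 0.37 for Junb, -0.84 to 0.13 for Maff, -2.63 to 1.66 for Atf3 and -0.54 to 2.00 for Egr1. For cold against RT they ranged in KO from -0.15 to 0.33 for Ier2, and in control from -0.21 to 0.92 for Egr1 and -1.01 to 0.070 for Ier3. In the difference they ranged from -0.66 to 0.31 for Maff and -3.83 to 0.47 for Atf3.

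Same-numbered samples had deviations from their group means correlated from -0.163 to 0.333. With 2 to 4 libraries per group, these correlations cannot decide whether the numbers pair the samples. With the replicate block 1, 0, 4 and 4 of the 9 genes passed in KO against control in cold, at RT, and in cold against RT in KO and in control, with 564, 0, 1629 and 2122 of all genes, and 0 in the difference of the cold responses (2 of all genes without the block). In control cold against RT the 4 were Fosl2, Ier2, Jun and Maff, so that Ier2 came in (adjusted p = 0.0233) and Atf3 (0.0513) and Fos (0.0729) dropped out. The presence of 2 control RT libraries and the low counts of Fos and Fosb limit the precision. Fos was not tested without KO RT 2 or control cold 4, because it then missed the filter, and was tested without each other library.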
